A study of Sus scrofa with 9 samples.

Results

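A set of 10 genes that mark commitment to the bone-forming lineage were followed through the exonic 5-hydroxymethylcytosine (5hmC) levels of swine adipose-derived mesenchymal stem/stromal cells (MSCs). They were the transcription factors RUNX2, SP7, DLX5 and MSX2, the mineralising enzyme gene ALPL, and the bone matrix genes BGLAP, SPP1, IBSP, SPARC and DMP1. The members were taken by gene symbol, and all 10 were found in both deposited tables, among 18933 genes in the table of Obese- and Lean-MSCs and 18992 genes in the table of vitamin-C-treated and untreated Obese-MSCs. Hydroxymethylated DNA immunoprecipitation sequencing (hMeDIP-seq), in which an antibody to 5hmC pulls down marked DNA fragments for sequencing, had been performed on 9 libraries in 3 groups of 3. Lean-MSCs came from female domestic pigs on standard chow. Untreated Obese-MSCs came from such pigs on a high-fat/high-fructose diet, with both diets begun at 3 months of age and given for 16 weeks. Treated Obese-MSCs, from pigs on the same high-fat/high-fructose diet, had been cultured for 48 h with vitamin-C at 50 µg/mL. The medium itself held some ascorbic acid phosphate, a form of vitamin-C, so untreated means without the added dose. All cells had been isolated from subcutaneous abdominal fat and expanded in culture before use, and it is not stated which of the treated and untreated cultures shared an animal.

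Osteoblasts arise from mesenchymal progenitors in an ordered programme. RUNX2 starts it and SP7 (osterix) acts downstream, while the homeobox factors DLX5 and MSX2 modulate both, and the committed cell then makes alkaline phosphatase and a matrix that mineralises. Several matrix proteins, among them osteopontin (SPP1), bone sialoprotein (IBSP) and dentin matrix protein 1 (DMP1), belong to the SIBLING family of acidic phosphoproteins, whose genes lie next to each other in mammalian genomes. 5hmC is made from 5-methylcytosine by the TET enzymes, for which vitamin-C is a cofactor, and over gene bodies it often accompanies transcription. It is nevertheless a mark on DNA and does not measure expression, so the values below could not be used to check the identity of the cells against their surface markers.

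The values were normalized counts of reads over all exons of a gene, and they were compared within a table because each table had been normalized separately. Levels were not compared between genes, since exon lengths were not used here. Library totals ran from 494566 to 522269 in the table with Lean-MSCs and from 547242 to 593846 in the vitamin-C table, and the median Pearson's r of a library with the others of its table, over genes on the log2 scale, was 0.907 to 0.921, so that no library stood apart by this measure. The number of genes listed at exactly 0 differed between libraries, from 0 to 870, and values far below 1 can therefore not be told apart from 0. Depth in reads is unknown, so errors are the spread over the libraries of a group, which may be partly technical, and more cells carrying the mark cannot be told apart from more 5hmC per cell.

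A gene was called high or low by applying the criteria the study states to the deposited values. These criteria were an unadjusted p-value of 0.05 or less in a two-sided equal-variance test together with a ratio of means that reached 1.4 or was no higher than 0.7. In Obese- versus Lean-MSCs, 1 of the 10 osteogenic genes was called, DMP1, and it was low. None was called high. Over all genes 2.43% were called low and 2.07% high, 4.5% in all, which for 10 genes is less than 1 gene in either direction. The 5hmC levels of the remaining 9 genes did not meet the criteria, and the master regulator RUNX2 was among them. In treated versus untreated Obese-MSCs, 0 of the 10 genes was called in either direction, against 1.92% of all genes. On the p-value criterion alone DMP1 and SPARC passed in Obese-MSCs, against 6.04% of all genes, and no member passed with vitamin-C, against 2.64%.

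DMP1 encodes an acidic matrix phosphoprotein made mainly by osteocytes and odontoblasts, and it lies on chromosome 8 from 131285238 to 131319398 in Sscrofa11.1. Its 5hmC level was 17.9, 18.0 and 17.7 normalized counts in Obese-MSCs, against 37.2, 28.8 and 30.8 in Lean-MSCs. Every Obese library was therefore below every Lean library, and the Obese values were almost the same. The mean was 17.9 ± 0.167 in the Obese group and 32.3 ± 4.37 in the Lean group (SD, n = 3 each), which gave a ratio of 0.553 and a log2 ratio of -0.85. By the two-sided exact permutation test p was 0.1, and no lower p is possible with 3 libraries a group.

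The call of DMP1 was kept under all 12 alternatives to the criteria, which included a p-value threshold of 0.01, other scalings of the libraries and each of the 6 libraries left out in turn. These alternatives reuse the same libraries, with the small spread of the Obese values in each, and are not independent of each other. The log2 ratio of DMP1 stayed between -0.93 and -0.74 without 1 library. With limma on log2(value + 1) the difference was -0.81 (SE 0.271), with an unadjusted 95% interval from -1.38 to -0.24. The unadjusted limma p was 0.00749 and the Benjamini-Hochberg adjusted p over 15146 genes was 0.668. Over the alternatives this adjusted p lay between 0.586 and 0.961. No gene tested in either table reached an adjusted limma p of 0.05. Of the genes tested, 6.81% in the first table and 0.974% in the second had an unadjusted limma p of 0.05 or less.

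With vitamin-C the mean 5hmC of DMP1 was close to that of untreated Obese-MSCs. In the separately normalized second table its level was 21.1, 20.4 and 17.8 normalized counts in the treated libraries and 19.9, 20.4 and 19.5 in the untreated libraries, so that the groups overlapped. The means were 19.8 ± 1.72 with vitamin-C and 19.9 ± 0.453 without (SD, n = 3 each), a ratio of 0.994. The limma interval of the difference ran from -0.63 to 0.61 on the log2(value + 1) scale, so a change in either direction that corresponds to a ratio of 0.647 or 1.52 lies at its bounds. The untreated libraries were the same cells in both comparisons. Their DMP1 values were between 1.10 and 1.13 times as high in the second table, as were the median ratios over all shared genes.

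**Figure D1:**
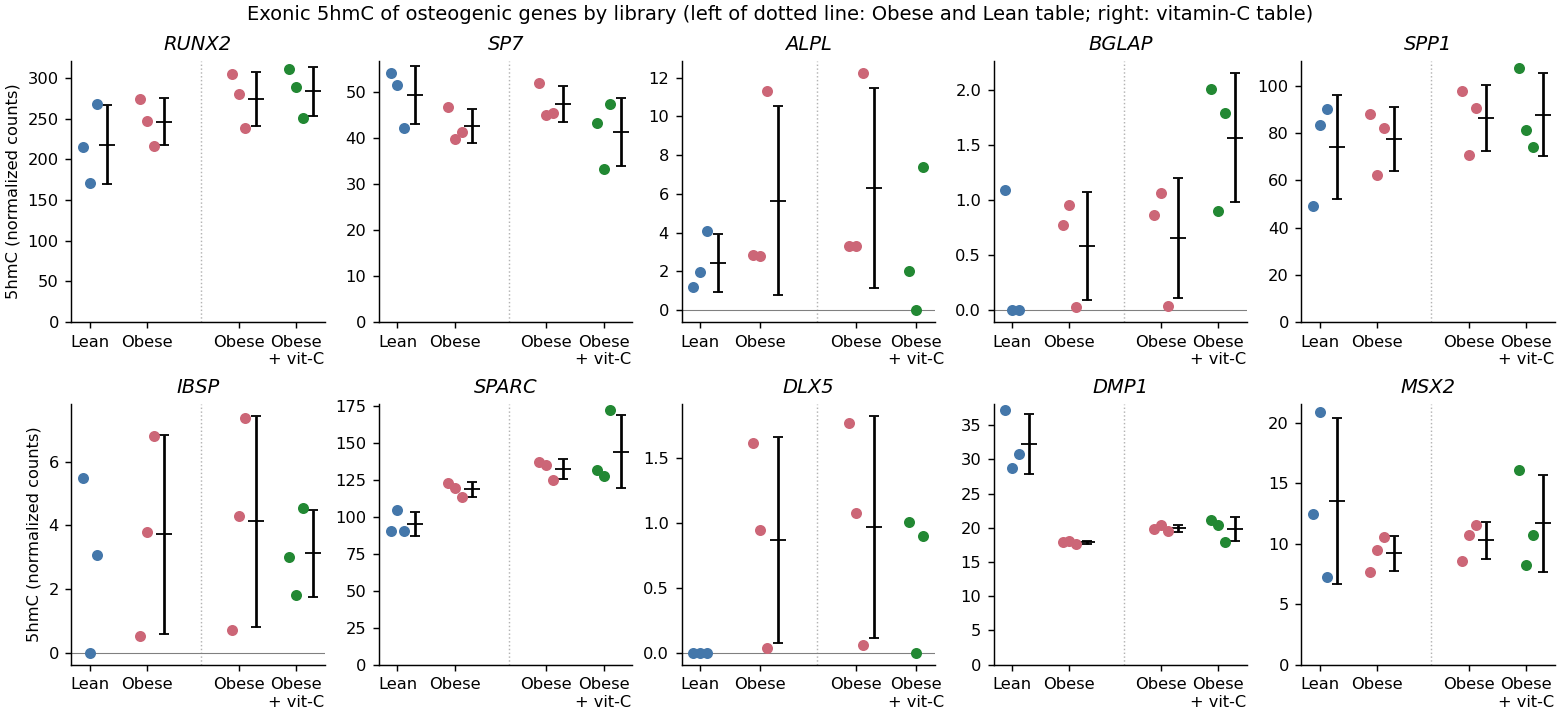
Exonic 5hmC of the 10 osteogenic genes in normalized counts (vertical axis, a separate linear scale for each gene) in each library, as points, with the mean and SD in black where no library of the group was listed at 0. Lean and Obese libraries of the first table stand left of the dotted line, and untreated and treated Obese libraries of the second table right of it. For DMP1 the Obese values of 17.9, 18.0 and 17.7 lie below all Lean values and the treated values overlap the untreated ones.

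The transcription factors that direct the lineage were not called in either comparison. RUNX2, the runt-domain factor required for osteoblast formation, lies on chromosome 7 from 40106581 to 40353304. Its 5hmC level was 275, 247 and 217 normalized counts in Obese-MSCs, against 215, 171 and 268 in Lean-MSCs, with overlap. The Obese mean of 246 ± 29.0 lay within the spread of the Lean mean of 218 ± 48.7 (SD, n = 3 each), with a ratio of 1.13 (exact permutation test, p = 0.4). The limma difference of 0.19 had an interval from -0.20 to 0.59. With vitamin-C the RUNX2 values were 311, 289 and 251, against 305, 280 and 239 without, a ratio of 1.03 with an interval of the limma difference from -0.35 to 0.45.

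SP7, the zinc finger factor downstream of RUNX2, lies on chromosome 5 from 18541368 to 18566668. It had 46.8, 39.8 and 41.3 normalized counts in Obese-MSCs, against 54.2, 51.6 and 42.1 in Lean-MSCs. Only the lowest Lean library fell within the Obese range, and the ratio was 0.864 (exact permutation test, p = 0.2). With vitamin-C the SP7 values were 43.3, 33.2 and 47.5 against 51.9, 45.1 and 45.4, a ratio of 0.871. The interval of the limma difference ran from -0.70 to 0.30 in Obese- versus Lean-MSCs and -0.76 to 0.35 with vitamin-C.

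MSX2, a homeobox factor of craniofacial and limb bone (chromosome 16 from 49765587 to 49771745), was at 7.63, 9.48 and 10.5 normalized counts in Obese-MSCs. In Lean-MSCs it was at 12.5, 20.9 and 7.24, so the groups overlapped. The ratio of 0.680 was past the fold criterion without meeting the p-value criterion, and the log2 ratio of -0.56 became -0.10 without Lean library 8 and -0.86 without Lean library 9. With vitamin-C the MSX2 values were 16.1, 8.25 and 10.7 against 8.56, 10.7 and 11.6, a ratio of 1.14. DLX5, the homeobox partner of DLX6 on chromosome 9 (from 76639915 to 76643689), was listed at 0 in all 3 Lean libraries and at 1.61, 0.944 and 0.0356 normalized counts in Obese-MSCs. All values were under 3 normalized counts, and the lowest Obese value cannot be told apart from 0, so no separation of the groups is read from them and no fold is given. In the second table DLX5 was at 1.01, 0 and 0.899 with vitamin-C and at 1.77, 1.08 and 0.0604 without.

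The gene of tissue-nonspecific alkaline phosphatase, ALPL, which frees phosphate for mineral (chromosome 6 from 79589695 to 79649646), carried little signal. Its level was 2.87, 2.79 and 11.3 normalized counts in Obese-MSCs, against 1.20, 1.98 and 4.09 in Lean-MSCs, and Obese library 3 was well above the others. With vitamin-C ALPL was at 2.02, 0 and 7.37, against 3.32, 3.29 and 12.2 without. The ratio there was 0.498 and was not called, and its log2 value of -1.01 ranged from -2.64, without treated library 6, to -0.078, without untreated library 3.

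Among the matrix genes, SPARC was the other one whose Obese and Lean libraries did not overlap. SPARC (osteonectin) is a calcium- and collagen-binding protein abundant in bone, and its gene lies on chromosome 16 from 71368164 to 71380972. Its 5hmC level was 123, 119 and 113 normalized counts in Obese-MSCs, against 90.5, 104 and 90.4 in Lean-MSCs. All Obese libraries were above all Lean libraries, with means of 118 ± 4.98 and 95.1 ± 7.97 (SD, n = 3 each; exact permutation test, p = 0.1). The ratio of 1.25 met the p-value criterion but not the fold criterion of 1.4, and the limma adjusted p was 0.812. With vitamin-C SPARC was at 132, 128 and 172 against 137, 135 and 124, and the treated libraries overlapped the untreated ones. With DLX5 and DMP1, SPARC was 1 of 3 members without overlap by the listed values in Obese- versus Lean-MSCs, DLX5 only through 0.0356 against 0, against 11.8% of all genes (5.7% with Obese-MSCs above and 6.06% below). None of the 10 was without overlap in the vitamin-C comparison, against 5.91% of all genes (3.24% with the treated libraries above and 2.67% below).

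SPP1 encodes osteopontin, a secreted phosphoprotein that binds integrins and mineral, and lies on chromosome 8 from 131077786 to 131085334. It had 88.1, 62.5 and 82.3 normalized counts in Obese-MSCs, against 49.0, 83.4 and 90.3 in Lean-MSCs. Its ratio to Lean-MSCs was 1.05, and that of treated to untreated cells 1.02, where the levels were 108, 81.4 and 74.2 against 97.8, 70.9 and 90.5. The groups overlapped in both comparisons, with intervals of the limma difference from -0.43 to 0.62 and from -0.50 to 0.54.

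IBSP, which encodes bone sialoprotein (chromosome 8 from 131208281 to 131222048), and BGLAP, which encodes osteocalcin (chromosome 4 from 93807703 to 93808806), had few counts. IBSP was at 0.534, 3.80 and 6.80 normalized counts in Obese-MSCs, against 5.49, 0 and 3.08 in Lean-MSCs. The IBSP values were 3.02, 1.81 and 4.53 with vitamin-C and 0.718, 4.29 and 7.36 without. BGLAP had 0.775, 0.952 and 0.0240 normalized counts in Obese-MSCs, against 1.10, 0 and 0.00229 in Lean-MSCs, and in the second table it had 2.01, 0.90 and 1.79 with vitamin-C against 0.863, 1.07 and 0.0410 without. The groups overlapped throughout. At these levels no difference was detectable for BGLAP, DLX5 or IBSP, which were also under the mean required for limma in both tables.

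**Figure D2:**
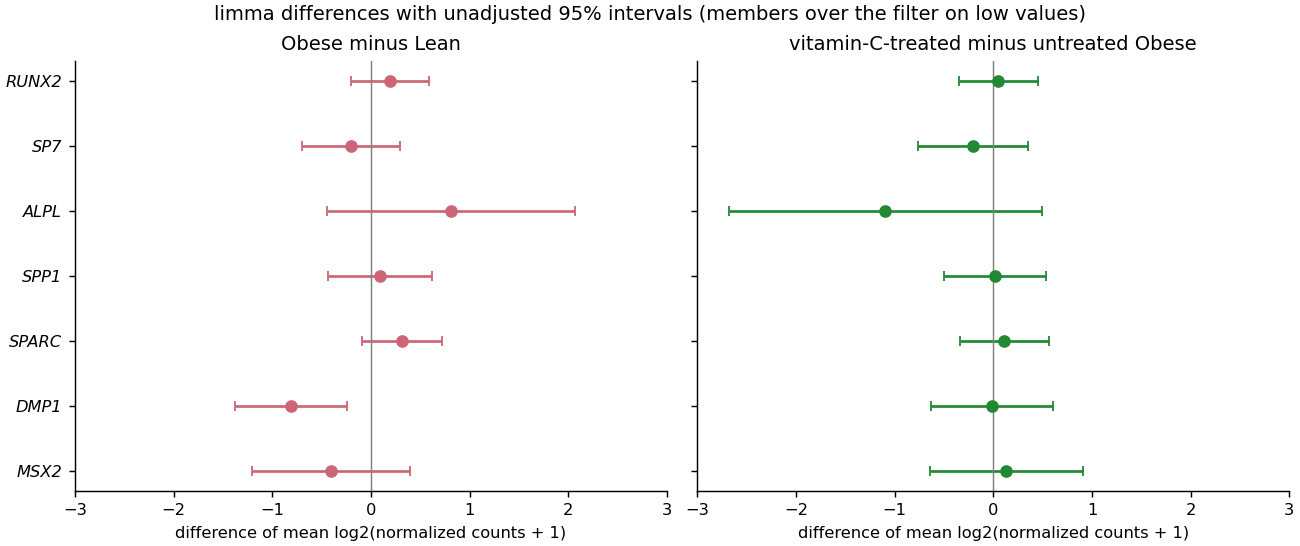
Differences of mean log2(normalized counts + 1) from limma (horizontal axis) for the 7 osteogenic genes over the filter on low values, with unadjusted 95% intervals, for Obese minus Lean (left) and vitamin-C-treated minus untreated Obese-MSCs (right). The interval of DMP1 in Obese-MSCs, from -1.38 to -0.24, is the only one of the 14 that does not include 0.

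The 10 genes did not shift in a common direction. In Obese-MSCs 7 had a ratio above 1 and 3, DMP1, MSX2 and SP7, a ratio below 1, and the median log2 ratio of the 10 was 0.25 beside 0.012 over all genes. DLX5, with no Lean value above 0, was counted as above 1. With DLX5, BGLAP, ALPL and IBSP this median rests on genes with a group mean of 3 normalized counts or less, and it fell to 0.059 without Lean library 8 and to 0.13 without Obese library 3. With vitamin-C 5 ratios were above 1 and 5 below, and the median log2 ratio was 0.0068, beside 0.0084 over all genes.

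Of the 10 members, SPP1, IBSP and DMP1 lie within 241613 bases of chromosome 8. The SIBLING gene MEPE lies between SPP1 and IBSP, and DSPP follows DMP1. MEPE (matrix extracellular phosphoglycoprotein) had 3.58, 5.66 and 12.5 normalized counts in Obese-MSCs, against 14.6, 8.93 and 11.3 in Lean-MSCs. Its ratio was 0.626, but the groups overlapped and it was not called. DSPP (dentin sialophosphoprotein) had a ratio of 1.10 in Obese-MSCs. Within 500 kb on either side of DMP1 the tables held 15 other genes, and 0 of these was called in Obese- versus Lean-MSCs. Over all genes 4.5% were called, so 0 among so few genes is near that share. Among these 15 genes NUDT9 had a ratio of 1.47, past the fold criterion in the opposite direction to MEPE. The annotated spans of DMP1 and DSPP overlap by 1212 bases, the DSPP span also holds all of SPARCL1 and part of NUDT9, and whether reads over shared exons were counted for either gene is not stated.

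DSPP was the only gene of this region called with vitamin-C, and it was low, against 0.806% of all genes called low. NUDT9 and LOC100520923 in the region also passed a fold criterion there, in opposite directions, with ratios of 0.686 and 1.85. Neither of them was called. The level of DSPP was 3.02, 3.71 and 3.58 normalized counts in the treated libraries and 5.15, 6.42 and 5.24 in the untreated libraries, with no overlap. The means of 3.43 ± 0.365 and 5.60 ± 0.708 (SD, n = 3 each; exact permutation test, p = 0.1) gave a ratio of 0.613 at low signal, and the call was kept without each library in turn. The limma difference of -0.57 had an interval from -1.58 to 0.43.

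**Figure D3:**
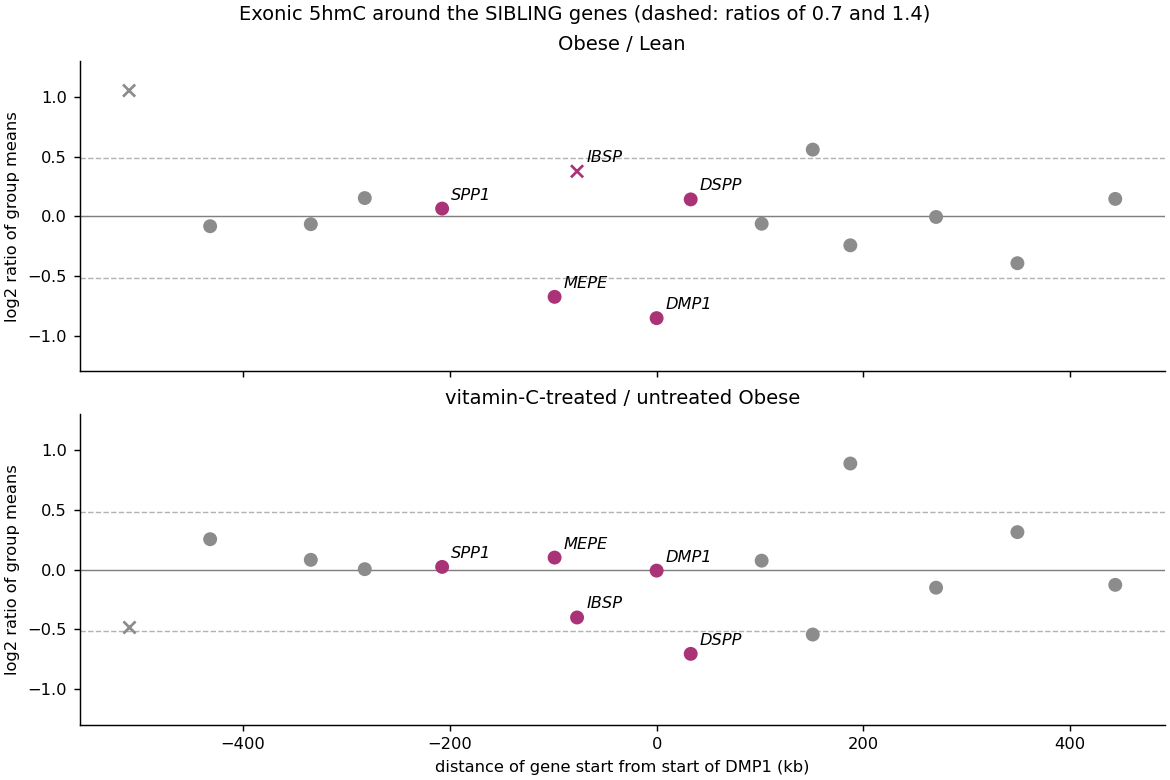
Log2 ratios of group means (vertical axis) for the genes whose annotated span reaches within 500 kb of DMP1, by the distance in kb of their start from that of DMP1 (horizontal axis), in Obese- versus Lean-MSCs (top) and in treated versus untreated Obese-MSCs (bottom). Purple symbols are SIBLING genes, grey symbols other genes, crosses mark a group mean of 3 normalized counts or less, and a gene listed at 0 in all Lean libraries is left out. DMP1 lies at -0.85 in the top panel and -0.01 in the bottom panel, where DSPP lies at -0.71.

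The wider osteogenic programme was described with 4 further lists, of osteoblast transcription factors, other bone matrix genes, mineralisation and osteocyte genes, and osteogenic signalling, for which 56 of 58 names were found. In Obese- versus Lean-MSCs 5 of these genes (8.93%) were called high, against 2.07% of all genes, and 0 were called low, against 2.43%. The lists were chosen with earlier results of these data known, so these shares are a description only and test nothing. The median log2 ratio of the 56 was 0.09, beside 0.012 over all genes. With limma 0 of the 48 tested genes passed an adjusted p of 0.05. An unadjusted limma p of 0.05 or less was found for 5 of the 48, against 6.81% of all genes tested. The 5 were 4 of the called genes, which were higher in Obese-MSCs, and ZBTB16, a zinc finger factor that was lower. ZBTB16 had 15.2, 7.53 and 7.25 normalized counts in Obese-MSCs, against 20.3, 14.9 and 23.6 in Lean-MSCs, a ratio of 0.510 with overlapping groups that was not called. Its limma difference was -0.96 (interval from -1.69 to -0.22, unadjusted p = 0.0131, adjusted p = 0.679).

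The called genes were SMPD3 and FAM20C of the mineralisation list, OMD of the matrix list, WNT10B of the signalling list and TWIST1 of the transcription factors. SMPD3, a neutral sphingomyelinase needed for skeletal mineralisation (chromosome 6 from 28938287 to 29025397), was at 22.6, 24.7 and 19.0 normalized counts in Obese-MSCs, against 13.5, 11.9 and 12.3 in Lean-MSCs. Its ratio was 1.75 with no overlap. FAM20C, the Golgi kinase that phosphorylates SIBLING proteins (chromosome 3 from 159107 to 200462), was at 102, 96.7 and 76.8 against 75.4, 50.6 and 50.4, a ratio of 1.56. The groups did not overlap, but the lowest Obese and the highest Lean library lay close together.

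OMD, the small leucine-rich proteoglycan osteomodulin (chromosome 3 from 42142603 to 42155032), was at 38.8, 42.7 and 40.0 normalized counts in Obese-MSCs, against 18.3, 25.8 and 31.8 in Lean-MSCs, a ratio of 1.60. WNT10B, a Wnt ligand that favours osteoblasts over adipocytes (chromosome 5 from 14997377 to 15013928), was at 32.0, 29.4 and 27.2 against 17.1, 22.8 and 18.5, a ratio of 1.52. TWIST1, a bHLH factor that restrains RUNX2 (chromosome 9 from 88286911 to 88290131), was at 6.34, 4.73 and 3.64 against 1.19, 1.98 and 3.07, with Lean values near or under 3 normalized counts. In each of these 5 genes the Obese libraries were all above the Lean libraries. The exact permutation test gave p = 0.1 for each of these 5 genes, and the limma adjusted p of the 4 tested ones lay between 0.668 and 0.728. Their separation follows largely from the call, which used the same values, and is no further support. Of the 56 genes 7 were without overlap in Obese- versus Lean-MSCs, which is near the share of 11.8% over all genes.

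SMPD3 and WNT10B kept their call without each of the 6 libraries in turn, whereas OMD and FAM20C kept it for 2 of these 6 and TWIST1 for 1. Without Obese library 2 the number of called genes among the 56 was 2. Without Lean library 8 there were 2 high and 2 low calls, the low ones being ATF4 and ZBTB16. Over all 18933 genes there were 479 high and 387 low calls without Obese library 2. Without Lean library 8 there were 359 high and 479 low calls over all genes. In treated versus untreated Obese-MSCs, DSPP was the only 1 of the 56 genes called, and 0 were called high, against 0.806% of all genes called low and 1.11% called high. The ratios with vitamin-C were 1.02 for SMPD3, 1.16 for FAM20C, 0.962 for OMD, 0.821 for WNT10B and 0.698 for TWIST1. None of these 5 was called, and their treated and untreated libraries overlapped. The untreated Obese libraries serve in both comparisons, on opposite sides, so the ratios of a gene in both are not independent.

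**Figure D4:**
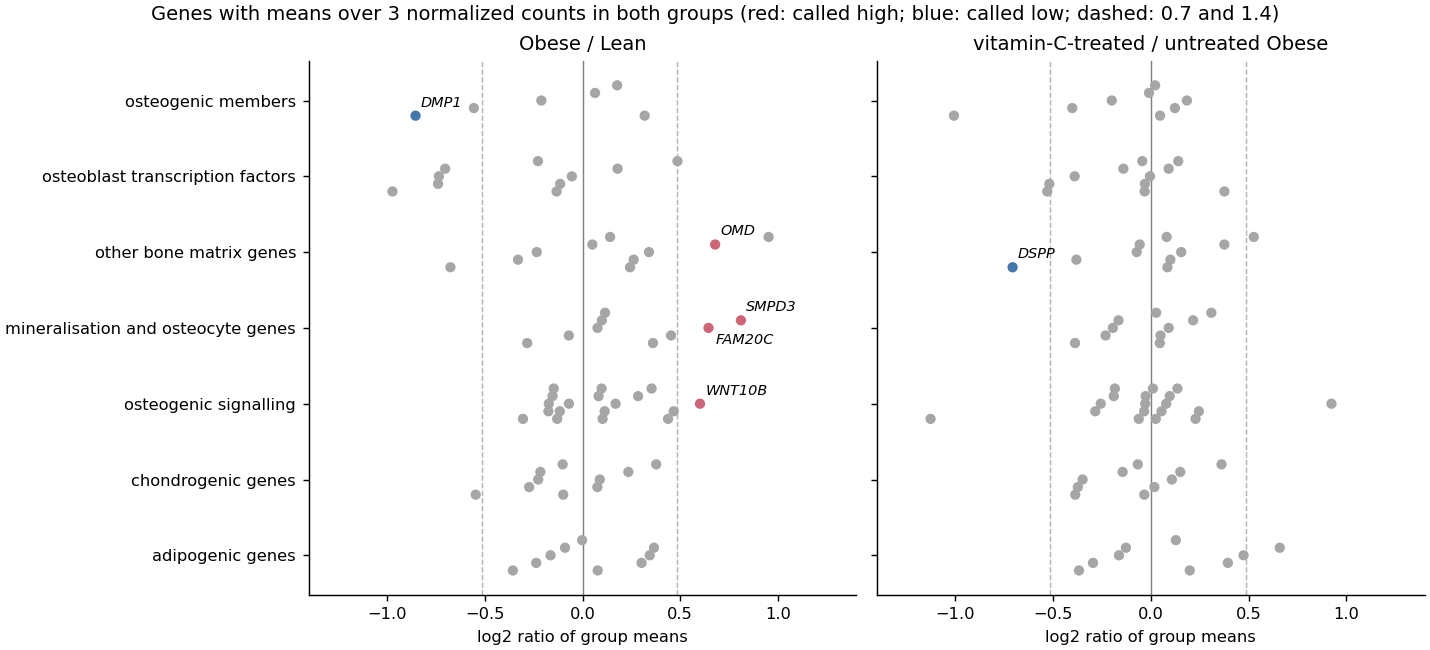
Log2 ratios of group means (horizontal axis) of the osteogenic members, the 4 further osteogenic lists and the chondrogenic and adipogenic lists, for genes with means over 3 normalized counts in both groups, with Obese / Lean on the left and treated / untreated on the right. Red points are genes called high, blue points genes called low, and vertical offsets within a list carry no meaning. DMP1 is the only blue point on the left, where 4 osteogenic genes are red, and DSPP is the only coloured point on the right.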

How the data were processed

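hMeDIP-seq libraries of swine MSCs were aligned by the authors with Bowtie 2 (v2.3.3.1) to susScr 11.1, duplicates were removed with PICARD, exonic reads per gene were counted with htseq-count (v0.9.1), and the counts were processed with edgeR (v3.28.1). The deposited values are normalized counts, a signal that is fractional and never negative. Low values cluster near steps that differ between libraries, and whole reads were not recovered, so no count test was run. For the vitamin-C comparison, 645 positive residues of rounding close to 0 were replaced by 0, and 25 gene names had become dates.

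Libraries were grouped by the submitters' labels. Calls applied the criteria the study states to the deposited values. limma 3.58.1 (R 4.3.3) was fitted within each table to log2(value + 1) with a trend, over the upper 80% of genes by mean, with Benjamini-Hochberg adjustment over all genes tested. The pseudocount of 1 understates changes of low genes. Exact permutation tests used 20 arrangements. Group means that did not exceed 3 normalized counts were taken as low, and no fold is given where either group had such a mean. The procedure was tested on simulated data. Other steps used Python 3.11.15.

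The members and lists were chosen with earlier results of these data known. The text names all members, the list genes called in either comparison and, for lists without any, the gene with the largest change per comparison among those with both means over 3, and for RUNX2 its 3 most similar genes. MEPE, SPARCL1, NUDT9, LOC100520923, CD14, ATF4, DLX3, DLX6 and ZBTB16 were named after their values were seen. Gene positions are those of RefSeq for Sscrofa11.1, matched by symbol for all 10 members. No sequences were used.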

Additional observations from a re-analysis of the deposited data

How the results depend on the processing

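No paired analysis was possible because the groups share no replicate numbers and no source used here says which cultures share an animal. The number of osteogenic members called in Obese- versus Lean-MSCs was 1, and it was 2 on the p-value criterion alone, which added SPARC, and between 1 and 2 without a library, with DLX5 added at values under 3 without Obese library 3. With vitamin-C it was 0 under every alternative to the criteria, and limma passed 0 members in both comparisons under all of its alternatives. The median log2 ratio of the members lay between 0.059 and 0.26 in Obese-MSCs without a library, lowest without Lean library 8, and with vitamin-C between -0.13, without treated library 4, and 0.095, without untreated library 1. For the other osteogenic genes, whose alternatives were chosen after seeing the data, the number called in Obese-MSCs was 5, fell to 1 at a p-value threshold of 0.01 (SMPD3), and lay between 2 and 7 without a library, with 1 low call without Obese library 1 (ZBTB16), Lean library 7 (DLX3) or Lean library 9 (DLX6) and 2 without Lean library 8. With vitamin-C it lay between 1 and 2, with WNT10B added as low without treated library 6 and ZBTB16 as high without untreated library 1. Of the genes called low in Obese-MSCs without a library, DLX3 had an Obese mean of 2.26 normalized counts and ATF4 of 0.953, both under 3. Over all 18933 genes the calls in Obese-MSCs also fell at the 0.01 threshold, from 391 high and 461 low to 86 and 130. Without a library they lay between 268 and 488 high and between 380 and 502 low. With vitamin-C they lay between 196 and 364 high and between 156 and 245 low among 18992 genes. Depth in reads is unknown, and 3 libraries a group limit what single genes can show.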

Other observations

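The lists of the other lineages open to MSCs held no called gene. Of the 10 chondrogenic genes, 0 were called in either comparison. Over all genes 4.5% were called in Obese- versus Lean-MSCs and 1.92% with vitamin-C. For a list this short 0 calls is near those shares, and no difference between lineages is read from it. SOX6, a cofactor of the cartilage regulator SOX9, had the largest change in Obese- versus Lean-MSCs, with 129, 92.8 and 130 normalized counts in Obese-MSCs, against 139, 195 and 181 in Lean-MSCs. These groups did not overlap and the ratio was 0.685, but the p-value criterion was not met except without Lean library 7 or after quantile normalization. With vitamin-C the largest change was that of the cartilage collagen gene COL9A1, with a ratio of 0.765. Likewise near these shares, 0 of the 11 adipogenic genes found were called. Among those with means over 3 normalized counts, the largest changes were ratios of 1.29 for the lipid droplet gene PLIN1 in Obese-MSCs and 1.58 for the leptin gene LEP with vitamin-C. The log2 ratio of PLIN1 was 0.37, and it was -0.67 without Obese library 1. LEP had 5.05, 22.2 and 33.5 normalized counts in the treated and 10.3, 12.9 and 15.3 in the untreated libraries, and would be called high without treated library 4.

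Of the surface markers by which MSCs are defined and the markers they should lack, 0 were called. Over all genes 4.5% were called in Obese- versus Lean-MSCs and 1.92% with vitamin-C, so 0 is near the share for so few genes. ENG (CD105) had 52.7, 67.4 and 52.0 normalized counts in Obese-MSCs, against 51.7, 37.7 and 31.9 in Lean-MSCs, a ratio of 1.42 that did not meet the p-value criterion except without Lean library 7. PTPRC (CD45), a leukocyte gene, had 55.5, 35.9 and 49.4 against 47.7, 68.5 and 61.6, a ratio of 0.792. The other markers that MSCs should lack were CD34, a marker of haematopoietic and endothelial cells, with a ratio of 1.05, and CD14, a monocyte gene listed at 0 in all Lean libraries and at 0.65, 0.924 and 4.49 in Obese-MSCs. Among genes with both means over 3 normalized counts, the largest changes with vitamin-C were ratios of 0.790 for NT5E (CD73), which would be called low without treated library 5, and 0.882 for CD34.

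Among 9465 other genes in the upper 50% by mean of the first table, those most similar to RUNX2 over the 6 libraries were GCC1, KAT6A and ADH5, with Pearson's r on the log2 scale of 0.992, 0.991 and 0.983. Of the other members in that set, SP7 had an r of -0.54 with RUNX2, DMP1 -0.34, SPP1 0.17 and SPARC 0.19. With 6 libraries and this many genes such values are a description only.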
